A study of Homo sapiens with 8 samples.

Results

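The tight junction genes described here are 9 genes that encode proteins of the seal between neighbouring epithelial cells: the claudins *CLDN1*, *CLDN3*, *CLDN4*, *CLDN7* and *CLDN12*, the MARVEL-domain proteins *OCLN* and *MARVELD2*, the immunoglobulin-like adhesion molecule *F11R* and the scaffold *TJP1*. They were found by name, by matching the symbols to the NCBI gene numbers of the count tables, a rule that sets no threshold on a measured value. All 9 of the 25702 listed gene numbers were found, and all 9 were among the 14333 genes that passed the filter on low counts, with between 510 and 8630 reads per library. The RNA came from SUIT2, a pancreatic ductal adenocarcinoma (PDA) line of human origin labelled as epithelial cells of the pancreas, with no genotype given. The cells carried either a scramble shRNA (shScr, 4 libraries) or 1 of 2 shRNA constructs against the homeobox gene *EN1* (shEN1 #1 and shEN1 #2, 2 libraries each), so that all 8 libraries came from shRNA-carrying cells of 1 line, and the comparison asks what lowering EN1 does to transcription. The labels name neither separate cultures nor a harvest day for the replicates, and p-values therefore measure only the spread between these libraries, which may be technical.

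Tight junctions lie at the apical end of the lateral membrane, where strands of claudins from neighbouring cells meet and decide which ions and small molecules pass between the cells. Occludin and tricellulin (the product of *MARVELD2*) are woven into these strands, the latter mainly at tricellular contacts, JAM-A (the product of *F11R*) adheres beside them, and ZO-1 (the product of *TJP1*) ties the proteins to the actin cytoskeleton. Carcinoma cells that take on a mesenchymal state are known to lose several of these genes, partly through the repressors of the SNAI and ZEB families, which bind E-boxes in DNA, while Grainyhead-like factors are known to sustain them.

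The promoters of the genes are shown first, since the members differed widely in how much their levels varied. RefSeq promoter windows on GRCh38.p14 were found for 8 of the 9 members, 13 windows in all. *F11R* had no entry. Below are the 250 bases before the start for both *CLDN7* windows, the member with the widest spread between libraries, for *CLDN4* and *CLDN1*, whose levels took different courses over the libraries, and for the *TJP1* window that holds an E-box, as the member with the narrowest spread. Capitals mark the E-box CACCTG or its reverse complement CAGGTG, all other letters are lower case, and each sequence reads 5′ to 3′ on the strand of the gene.
CLDN7, downstream window (chr17:7262479-7262728, minus strand): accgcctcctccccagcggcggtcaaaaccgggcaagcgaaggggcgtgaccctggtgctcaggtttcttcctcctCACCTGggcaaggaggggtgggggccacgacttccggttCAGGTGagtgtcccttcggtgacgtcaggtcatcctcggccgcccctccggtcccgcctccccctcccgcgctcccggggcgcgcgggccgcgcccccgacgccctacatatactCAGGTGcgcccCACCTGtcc
CLDN7, upstream window (chr17:7263214-7263463, minus strand): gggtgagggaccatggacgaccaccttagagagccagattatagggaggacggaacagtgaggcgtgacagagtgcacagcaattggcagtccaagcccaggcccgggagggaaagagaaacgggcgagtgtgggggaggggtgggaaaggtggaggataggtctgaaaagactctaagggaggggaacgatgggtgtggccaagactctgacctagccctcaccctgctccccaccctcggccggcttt
CLDN4 (chr7:73830746-73830995, plus strand): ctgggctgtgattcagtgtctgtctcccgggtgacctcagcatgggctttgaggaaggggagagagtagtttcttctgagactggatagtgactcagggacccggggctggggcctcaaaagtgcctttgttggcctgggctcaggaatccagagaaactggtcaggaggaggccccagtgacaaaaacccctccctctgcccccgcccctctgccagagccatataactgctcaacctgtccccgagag
CLDN1 (chr3:190322447-190322696, minus strand): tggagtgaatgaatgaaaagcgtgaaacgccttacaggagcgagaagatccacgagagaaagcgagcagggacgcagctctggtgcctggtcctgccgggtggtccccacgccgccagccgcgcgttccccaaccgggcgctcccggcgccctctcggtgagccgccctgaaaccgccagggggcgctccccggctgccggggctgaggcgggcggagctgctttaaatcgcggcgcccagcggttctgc
TJP1 (chr15:29969050-29969299, minus strand): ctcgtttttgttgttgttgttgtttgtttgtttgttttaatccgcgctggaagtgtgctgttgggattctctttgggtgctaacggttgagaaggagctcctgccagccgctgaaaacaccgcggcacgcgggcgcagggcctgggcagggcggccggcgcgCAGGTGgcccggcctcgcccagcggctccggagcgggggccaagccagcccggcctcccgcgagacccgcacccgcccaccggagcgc

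The downstream *CLDN7* window held 4 E-boxes, at 174, 135, 20 and 9 bases before the start, and the upstream one held 0. Of all 35116 promoter windows of this length, 17.5% held at least 1 such E-box (16.3% of the windows of genes tested) and 43 (0.122%) held 4 or more. The bar of 4 is the count of the downstream *CLDN7* window itself, so this share is no test. *OCLN* had 1 E-box in each of its 2 windows, *TJP1* had 1 in 1 of 4 windows (88 bases before the start), and the windows of *CLDN1*, *CLDN3*, *CLDN4*, *CLDN12* and *MARVELD2* held 0. The Grainyhead-like letters ACCNGTT, present in 5.37% of all windows and 4.54% of those of genes tested, were found once in *CLDN4* (94 bases before the start) and once in a *TJP1* window (214 bases before it). The homeodomain core TAATT, present in 23.1% of all windows and 14.2% of those of genes tested, was in 0 of the 13 windows. Of single windows, that of *CLDN3* held the most GC boxes GGGCGG, with 4 matches. This GC box was present in 42.6% of all windows and 62.9% of those of genes tested, and 7.63% of all windows held 4 or more. The 4 *TJP1* windows held 2, 3, 1 and 0. These letters were searched on both strands, they do not overlap each other in the printed sequences, and a match is a description of the sequence, not a bound site.

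Library totals lay between 33423590 and 37810604 counts. Levels are given as CPM, the reads of a gene scaled to a library of fixed size with TMM factors, which lay between 0.962 and 1.07. A name such as shScr replicate 4 stands for the library so labelled. *EN1*, the targeted gene, did not separate the labels: it stood at 4.10, 4.50, 4.94 and 2.51 CPM in shScr replicates 1 to 4, at 5.77 and 5.41 CPM in shEN1 #1 and at 1.35 and 6.70 CPM in shEN1 #2 (log2 fold change 0.26, SE 0.43, adjusted p = 1.00 by edgeR's quasi-likelihood test). Of the 4 libraries labelled shEN1, 3 held more *EN1* than any labelled shScr, so the target goes against their labels and no direction below is read as an effect of EN1. On the first principal component, which held 50.4% of the variance, shScr replicate 4 (48.6) and shEN1 #2 replicate 1 (49.9) stood apart from the other 6 (-21.5 to -9.47). The 5 epithelial markers summed to between 11450 and 14940 CPM in shScr and between 11110 and 17630 CPM in shEN1. The fibroblast markers summed to 1.27 to 4.22 CPM in shScr and 1.17 to 2.75 CPM in shEN1 with 4 of 6 at 0, and the endothelial markers to 0.316 to 0.603 and 0.364 to 0.676 CPM with *CDH5* and *KDR* at 0. The immune markers summed to 9.67 to 29.2 and 8.43 to 35.3 CPM, mostly *CD68*, with *PTPRC* and *CD3E* at 0.

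No difference between the labels was detected for any of the 9 tight junction genes. At an adjusted p below 0.05 over all genes tested, edgeR called 0 of 9 members, DESeq2 0 and limma-voom 0, and at an unadjusted p below 0.05 edgeR also called 0 of 9. Over all 14333 genes the same rules called 0% by edgeR, 0.014% (2 genes) by DESeq2 and 0.307% (44 genes) at the unadjusted p. The lowest unadjusted p of a member was 0.476, and the log2 fold changes lay between -0.11 and 0.08. The ranges of the labels overlapped for all 9 members, where 0.419% of all genes did not overlap. The level varied from library to library: over all 8 libraries, the median ratio of the highest to the lowest, with 0.5 CPM added, was 2.04 for the members and 1.65 for all genes tested, and 5 of the 9 members (55.6%) reached a ratio of 2, beside 29.1% of all genes. The ratio of the label means was nearer to 1 than either within-label ratio of highest to lowest for 9 of 9 members. Means of 4 libraries vary less than single libraries, so most genes can be like this. The share over all genes was not computed, and the count describes these members only. In bulk RNA, fewer cells that carry a transcript cannot be told apart from less of it per cell.

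**Figure D1:**
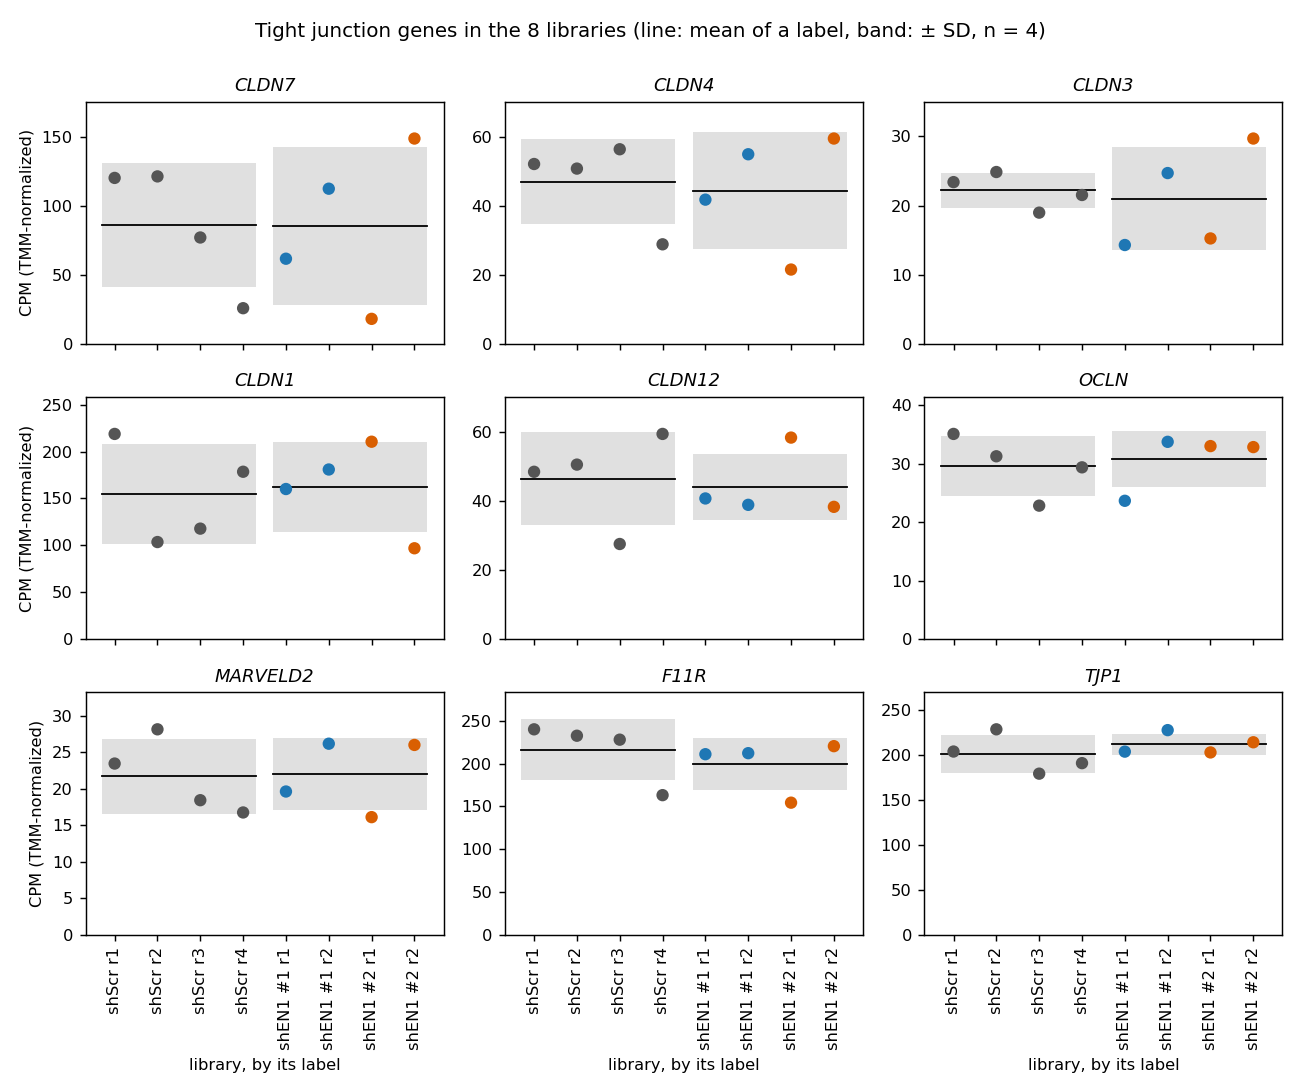
CPM (TMM-normalized, linear axis from 0) of each of the 9 tight junction genes in the 8 libraries, coloured by label (grey shScr, blue shEN1 #1, orange shEN1 #2), with the mean of each label as a line and ± SD (n = 4) as a band. The bands of the labels overlap in every panel, and *CLDN7* ranges from 18.1 to 148.6 CPM while *TJP1* stays between 179.0 and 228.3 CPM.

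*CLDN7* (gene 1366, chr17:7163222-7167302 of GRCh37, minus strand, 4 exons) encodes a claudin that also lies along the lateral membrane, where it binds EPCAM. *CLDN7* stood at 120.1, 121.2, 76.99 and 25.8 CPM in shScr replicates 1 to 4, at 61.6 and 112.3 CPM in shEN1 #1 replicates 1 and 2, and at 18.1 and 148.6 CPM in shEN1 #2 replicates 1 and 2. The lowest libraries, shScr replicate 4 and shEN1 #2 replicate 1, carry different labels, and so do the highest. Their counting intervals were narrow, 24.2 to 27.5 CPM for the former and 16.8 to 19.5 CPM for the latter (exact Poisson, 95%, counting error only), beside 144.5 to 152.9 CPM for shEN1 #2 replicate 2. The mean was 86.0 ± 45.1 CPM for shScr and 85.2 ± 57.2 CPM for shEN1 (SD, n = 4 each), with a log2 fold change of -0.01 (SE 0.62, adjusted p = 1.00, edgeR). The highest and the lowest library both carried the label shEN1, 8.01-fold apart, the range within shScr was 4.62-fold, and the SD of its log2 CPM (1.11) was above that of 99.2% of the genes tested.

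Among the members, the widest gap within 1 construct was that of *CLDN7* in shEN1 #2, between 18.1 and 148.6 CPM. Of its merged exon bases, 10.8% are shared with an unnamed gene model on the same strand that is not in the count table and 1.53% with *ELP5* on the opposite strand. The strand setting of the counting is not given in the sources used here, and reads in these stretches could therefore belong to either gene.

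*CLDN4* (gene 1364, chr7:73213872-73247020, plus strand, 1 exon in the canonical transcript) and *CLDN3* (gene 1365, chr7:73183327-73184600, minus strand, 1 exon) are neighbours on chromosome 7 and encode barrier-forming claudins that bind the enterotoxin of *Clostridium perfringens*. *CLDN4* stood at 52.2, 50.9, 56.5 and 28.9 CPM in shScr replicates 1 to 4, at 41.9 and 55.0 CPM in shEN1 #1 and at 21.6 and 59.6 CPM in shEN1 #2. As with *CLDN7*, shEN1 #2 replicate 1 was the lowest and shScr replicate 4 the next, and the other 6 lay between 41.9 and 59.6 CPM. The label means were 47.1 ± 12.4 CPM and 44.5 ± 17.04 CPM (SD, n = 4 each), a log2 fold change of -0.08 (SE 0.31).

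*CLDN3* stood at 23.4, 24.8, 18.97 and 21.5 CPM in shScr replicates 1 to 4, at 14.3 and 24.7 CPM in shEN1 #1 and at 15.2 and 29.7 CPM in shEN1 #2. In each construct replicate 1 was low and replicate 2 high, so that all the shScr values fell inside the shEN1 range. The label means were 22.2 ± 2.53 CPM and 20.97 ± 7.47 CPM (SD, n = 4 each), a log2 fold change of -0.08 (SE 0.23). The 2 neighbours did not keep step: *CLDN3* counted 0.336 to 0.745 reads for each *CLDN4* read, with the largest values in shScr replicate 4 (0.745) and shEN1 #2 replicate 1 (0.707) and at most 0.498 in the other 6.

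*CLDN1* (gene 9076, chr3:190023496-190040235, minus strand, 4 exons) encodes a barrier claudin best known from the epidermis. Its level was 218.8, 103.6, 117.9 and 178.5 CPM in shScr replicates 1 to 4, 160.1 and 180.9 CPM in shEN1 #1 and 210.5 and 96.97 CPM in shEN1 #2. The high and the low libraries were spread over both labels, and shEN1 #2 replicate 1, lowest for *CLDN7* and *CLDN4*, was the second highest here. The label means were 154.7 ± 53.7 CPM and 162.1 ± 48.1 CPM (SD, n = 4 each), a log2 fold change of 0.07 (SE 0.28).

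*CLDN12* (gene 9069, chr7:90013035-90142716, plus strand, 4 exons) encodes a claudin without the usual C-terminal motif that binds ZO proteins. Its level was 48.5, 50.6, 27.6 and 59.5 CPM in shScr replicates 1 to 4, 40.8 and 38.96 CPM in shEN1 #1 and 58.5 and 38.4 CPM in shEN1 #2. The highest libraries were shScr replicate 4 and shEN1 #2 replicate 1, the reverse of their place for *CLDN7* and *CLDN4*, and the lowest was shScr replicate 3. The label means were 46.6 ± 13.5 CPM and 44.2 ± 9.59 CPM (SD, n = 4 each), a log2 fold change of -0.08 (SE 0.23). The exons of *CLDN12* share 5.17% of their bases with *GTPBP10* and 2.996% with *CDK14* on the same strand, both in the count table. They also share 7.92% with *PTTG1IP2* and 5.53% with an unnamed lncRNA model on the same strand, neither in the count table.

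Set against each other within a library, where no scaling between libraries enters, the claudins traded places. *CLDN1* counted 1.82, 0.855, 1.53 and 6.92 reads per *CLDN7* read in shScr replicates 1 to 4, 2.60 and 1.61 in shEN1 #1 and 11.6 and 0.652 in shEN1 #2, a 17.8-fold range. The ratio of *CLDN12* to *CLDN7* reads ranged 12.5-fold (0.258 to 3.23), that of *CLDN4* to *CLDN7* only 2.97-fold (0.401 to 1.19). As a share of the summed level of the 5 claudins per transcript length, *CLDN7* made up 38.1%, 45.6%, 35.6% and 14.0% in shScr replicates 1 to 4, 29.9% and 38.7% in shEN1 #1 and 10.3% and 49.7% in shEN1 #2. By canonical transcript length, *CLDN1* held the largest share where *CLDN7* was lowest, 43.4% in shScr replicate 4 and 53.6% in shEN1 #2 replicate 1, and also in shEN1 #1 replicate 1 (34.7%). Which claudin leads depends on the length used. In reads, *CLDN1* was below *CLDN7* only in shScr replicate 2 and shEN1 #2 replicate 2. Per kilobase of merged exons, the mean of *CLDN1* (43.7) lay above that of *CLDN7* (34.4).

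**Figure D2:**
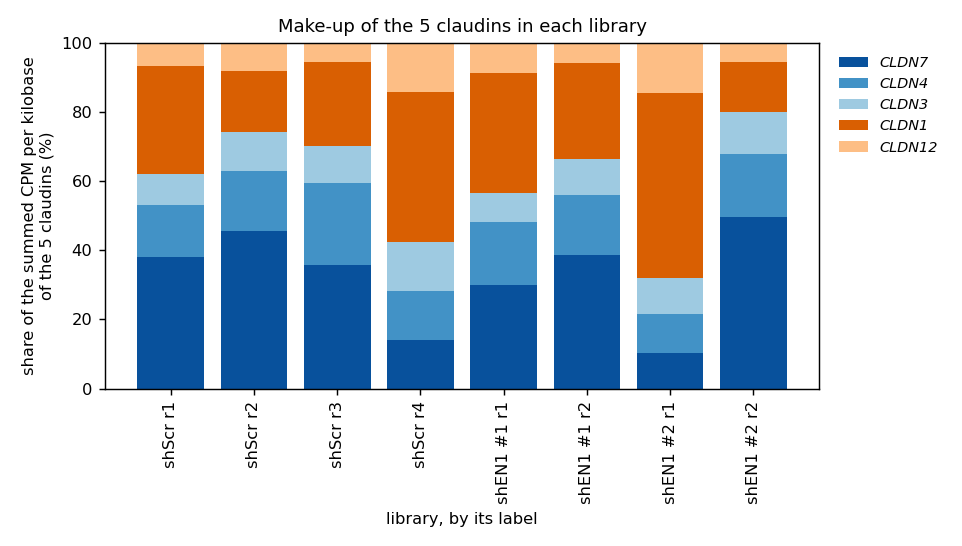
Share of each of the 5 claudins in their summed CPM per kilobase of canonical transcript, in percent, in each of the 8 libraries, stacked to 100. *CLDN7* (dark blue) falls to 14.0% in shScr replicate 4 and to 10.3% in shEN1 #2 replicate 1, where *CLDN1* (dark orange) takes 43.4% and 53.6%. The shares, and which claudin leads, depend on the transcript length used.

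*OCLN* (gene 100506658, chr5:68788119-68853931, plus strand, 9 exons) encodes occludin, the first membrane protein found in these strands. *OCLN* stood at 35.1, 31.3, 22.8 and 29.4 CPM in shScr replicates 1 to 4, at 23.7 and 33.8 CPM in shEN1 #1 and at 33.02 and 32.85 CPM in shEN1 #2. Only shScr replicate 3 and shEN1 #1 replicate 1 were low, while the libraries lowest for *CLDN7* lay among the rest. Its label means were 29.7 ± 5.13 CPM and 30.8 ± 4.78 CPM (SD, n = 4 each), a log2 fold change of 0.06 (SE 0.17). *OCLNP1*, a pseudogene of *OCLN* on the same chromosome, could share reads with it.

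*MARVELD2* (gene 153562, chr5:68710892-68740157, plus strand, 7 exons), close to *OCLN* on chromosome 5, encodes tricellulin. It stood at 23.4, 28.1, 18.4 and 16.7 CPM in shScr replicates 1 to 4, at 19.6 and 26.2 CPM in shEN1 #1 and at 16.1 and 25.99 CPM in shEN1 #2. The lowest were again shEN1 #2 replicate 1 and shScr replicate 4, although by less than for *CLDN7*. Its label means were 21.7 ± 5.15 CPM and 21.97 ± 4.96 CPM (SD, n = 4 each), a log2 fold change of 0.02 (SE 0.21). *OCLN* counted between 1.11 and 2.05 reads for each *MARVELD2* read.

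*F11R* (gene 50848, chr1:160965001-160991133, minus strand, 10 exons) encodes JAM-A, which acts early in the assembly of the junction. *F11R* stood at 240.2, 232.7, 228.1 and 163.2 CPM in shScr replicates 1 to 4, at 211.1 and 212.3 CPM in shEN1 #1 and at 154.4 and 220.5 CPM in shEN1 #2. The low libraries were shEN1 #2 replicate 1 and shScr replicate 4, 1 in each label, and the other 6 lay within 211.1 to 240.2 CPM. Its label means were 216.1 ± 35.6 CPM and 199.6 ± 30.4 CPM (SD, n = 4 each), and its log2 fold change of -0.11 (SE 0.16) was the largest in size among the members. A readthrough gene model that is not in the count table shares 36.6% of its exon bases.

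*TJP1* (gene 7082, chr15:29991571-30261118, minus strand, 28 exons) encodes ZO-1. *TJP1* stood at 203.6, 228.3, 179.0 and 190.7 CPM in shScr replicates 1 to 4, at 203.5 and 227.4 CPM in shEN1 #1 and at 202.6 and 213.9 CPM in shEN1 #2. The scaffold was the steadiest member: its 1.27-fold range was the narrowest of the 9, and the SD of its log2 CPM (0.119) was above that of only 8.2% of the genes tested. Its label means were 200.4 ± 21.2 CPM and 211.8 ± 11.5 CPM (SD, n = 4 each), a log2 fold change of 0.08 (SE 0.11), which gave the lowest unadjusted p of the members.

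**Figure D3:**
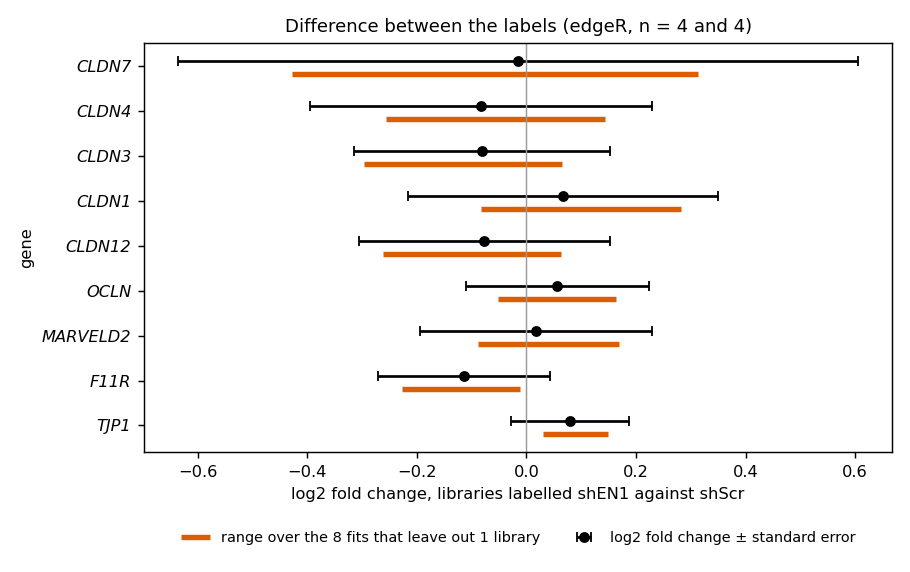
Log2 fold change of the libraries labelled shEN1 against those labelled shScr for the 9 tight junction genes (points; edgeR, n = 4 and 4), with the standard error as a black line and the range over the 8 fits that leave out 1 library as an orange bar. The standard error of each of the 9 members reaches across 0, the widest belongs to *CLDN7* (0.62) and the narrowest to *TJP1* (0.11).

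The 2 constructs were also taken singly, each against shScr and 1 against the other, in 1 fit of 3 groups that shares its estimate of the spread and its shScr libraries. In each of these comparisons edgeR called 0 of 9 members at an adjusted p below 0.05 and 0 of 9 at the unadjusted p. Over all genes, shEN1 #1 against shScr gave 0% and, unadjusted, 0.656%, shEN1 #2 against shScr gave 0% and 0.3%, and shEN1 #2 against shEN1 #1 gave 0% and 1.07%. *CLDN7* had a log2 fold change of 0.02 (SE 0.82) for shEN1 #1 and -0.05 (SE 0.82) for shEN1 #2. *CLDN12* was at -0.22 (SE 0.29) for shEN1 #1 and 0.06 for shEN1 #2, and *F11R* at -0.03 and -0.20 (SE 0.20).

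Per transcript length (CPM per kilobase of the canonical transcript, mean ± SD, n = 8), the levels fell into steps. *CLDN7* had the highest mean at 55.5 ± 30.9, followed by *CLDN1* at 46.0 ± 13.7 and *F11R* at 44.8 ± 6.88, and these 3 did not differ beyond their spread. *CLDN7* lay above *CLDN1* in 5 of 8 libraries and *CLDN1* above *F11R* in 5 of 8. *TJP1* (28.7 ± 2.35) and *CLDN4* (27.02 ± 8.18) formed the next step, with *TJP1* below *F11R* in 8 of 8 libraries and above *CLDN4* in 4 of 8. *CLDN3* (16.9 ± 4.08) lay above *CLDN12* (12.8 ± 3.09) in 6 of 8, and *MARVELD2* (4.93 ± 1.06) and *OCLN* (4.89 ± 0.749) came last, below *CLDN12* in 8 of 8 and changing places between libraries. With the merged exons of all transcripts as the length, *CLDN1* and *F11R* came before *CLDN7* and *CLDN3* before *CLDN4*, so the order depends on the length used.

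**Figure D4:**
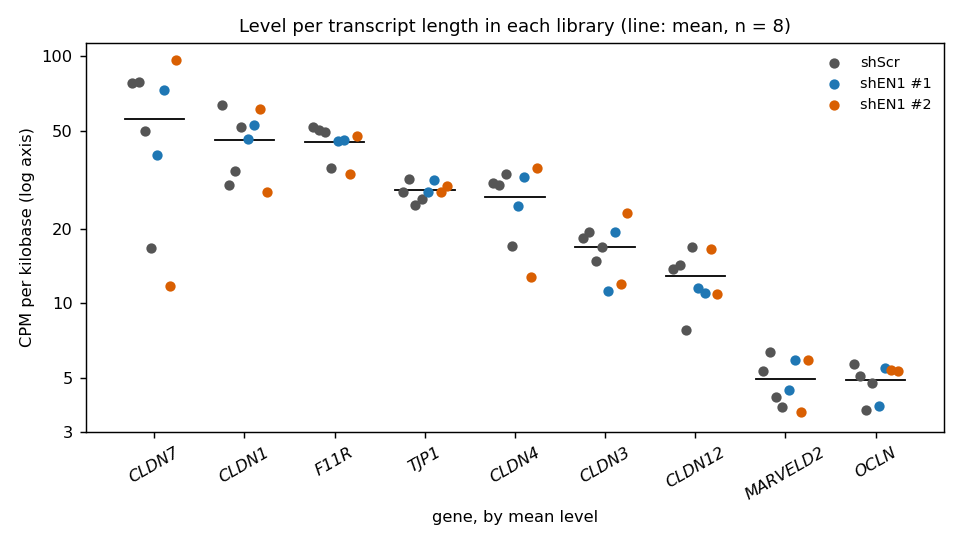
CPM per kilobase of canonical transcript (log axis) of the 9 tight junction genes, 1 point per library coloured by label, with the mean over 8 libraries as a line. *CLDN7* spans 11.7 to 96.4 and crosses the ranges of 6 other members, while *MARVELD2* and *OCLN* lie lowest at means of 4.93 and 4.89.

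Across the 9 members together, each library was compared with every other by the root mean square difference in log2 CPM. In 8 of 8 libraries the nearest one carried the other label: shScr replicate 1 paired with shEN1 #1 replicate 2 (0.176), shScr replicate 2 with shEN1 #2 replicate 2 (0.210), shScr replicate 4 with shEN1 #2 replicate 1 (0.290) and shScr replicate 3 with shEN1 #1 replicate 1 (0.334). The same partners were nearest in 8 of 8 libraries over all genes tested, at distances of 0.264 to 0.385. The median distance over the members was 0.692 for the 12 pairs of libraries with the same label and 0.491 for the 16 pairs with different labels. Both medians depend on shScr replicate 4 and shEN1 #2 replicate 1, which carry different labels. Apart from their own pair, these lay 0.733 to 1.26 from libraries of their label and 0.553 to 1.12 from those of the other. The summed CPM of the 9 members moved less than most of them did singly, from 714.3 in shScr replicate 4 to 965.4 in shScr replicate 1. *TJP1*, *F11R* and *CLDN1*, with the highest CPM, weigh most in this sum, and *TJP1* (1.27-fold) and *F11R* (1.55-fold) varied little. The small range is therefore not read as a balance among the members.

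The epithelial surface genes *EPCAM*, whose product binds claudin-7, and *CDH1* (E-cadherin), 2 of the 5 epithelial markers, were low in the same libraries as *CLDN7*. *EPCAM* stood at 234.3 CPM in shScr replicate 4 and 241.0 CPM in shEN1 #2 replicate 1, against 366.0 to 589.4 CPM in the other 6. *CDH1* stood at 124.2 and 103.0 CPM there, against 156.5 to 256.4 CPM. Of the 3 keratins, *KRT19* was low there too (400.3 and 320.9 CPM, against 831.5 to 1648 CPM), whereas *KRT8* (6486 and 6367 CPM) had its lowest value, 6094 CPM, in shEN1 #1 replicate 1 and *KRT18* (4254 and 4219 CPM) its lowest, 3586 CPM, in shScr replicate 3. *EN1* was also lowest in these libraries, at 2.51 and 1.35 CPM. The part of any of these in the levels of the tight junction genes was not tested.

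Among 18 other claudins, 7 passed the filter, and 0 of 7 passed the test by edgeR at the adjusted or the unadjusted p, with 3 fold changes above and 4 below 0. *CLDN2*, a channel-forming claudin that lets cations and water through, had the highest level of all claudins tested (mean 97.7 CPM per kilobase). In CPM it stood at 285.1, 438.3, 386.3 and 82.9 in shScr replicates 1 to 4, at 354.1 and 273.3 in shEN1 #1 and at 79.5 and 415.0 in shEN1 #2. Its lowest libraries were those of *CLDN7*. *CLDN10*, another channel-forming claudin, was low throughout and highest in the same libraries (5.69 CPM in shScr replicate 4 and 6.86 CPM in shEN1 #2 replicate 1, against 0.647 to 3.47 CPM elsewhere). *CLDN2* and *CLDN10* were named for their wide range, *CLDN2* also for its level, and these libraries stood apart over all genes as well.

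Among 18 other tight junction proteins, 16 passed the filter and 0 of 16 the test at either p, with 6 fold changes above and 10 below 0. Those described here were named for their wide range, except *LSR*, named for its level. The adhesion molecule *ESAM* and the scaffold *TJP3* (ZO-3) were low in the libraries lowest for *CLDN7*. *ESAM* was at 11.6 and 12.8 CPM in shScr replicate 4 and shEN1 #2 replicate 1, against 36.5 to 62.5 CPM elsewhere, and *TJP3* at 7.05 and 5.23 CPM, against 11.1 to 26.2 CPM. *MARVELD3*, a relative of occludin, was at 4.06 and 3.33 CPM there, against 6.30 to 15.95 CPM. *JAM3*, a relative of *F11R*, was the reverse, at 28.7 and 24.9 CPM against 7.41 to 11.3 CPM. *TMEM47*, a claudin-related membrane protein, took a course of its own, from 0.553 CPM in shEN1 #2 replicate 2 to 4.90 CPM in shEN1 #1 replicate 1. *LSR*, which marks tricellular contacts, was steadier (101.4 to 169.2 CPM). As shScr replicate 4 and shEN1 #2 replicate 1 stood apart on the first principal component over all genes, genes picked for a wide range can be extreme there. The share of all genes extreme in these libraries was not computed, so this is not read as a trait of tight junction genes.

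Among 34 polarity and junction regulators, 33 passed the filter and 0 of 33 the test at either p, with 23 fold changes above and 10 below 0. *MYLK*, the myosin light chain kinase that tightens the actomyosin ring below the junction, had the widest range, at 27.7 CPM in shScr replicate 4 and 33.8 CPM in shEN1 #2 replicate 1 against 2.86 to 8.12 CPM elsewhere. *YBX3*, a Y-box protein that binds ZO-1, stayed within 277.9 to 340.8 CPM and *RAB13*, a GTPase of junction trafficking, within 58.9 to 74.8 CPM. Of 8 genes of junction proteolysis and trafficking, 7 passed the filter and 0 of 7 the test at either p, with 0 fold changes above and 7 below 0. Over all genes tested, 7006 fold changes lay above 0 and 7327 below.

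**Figure D5:**
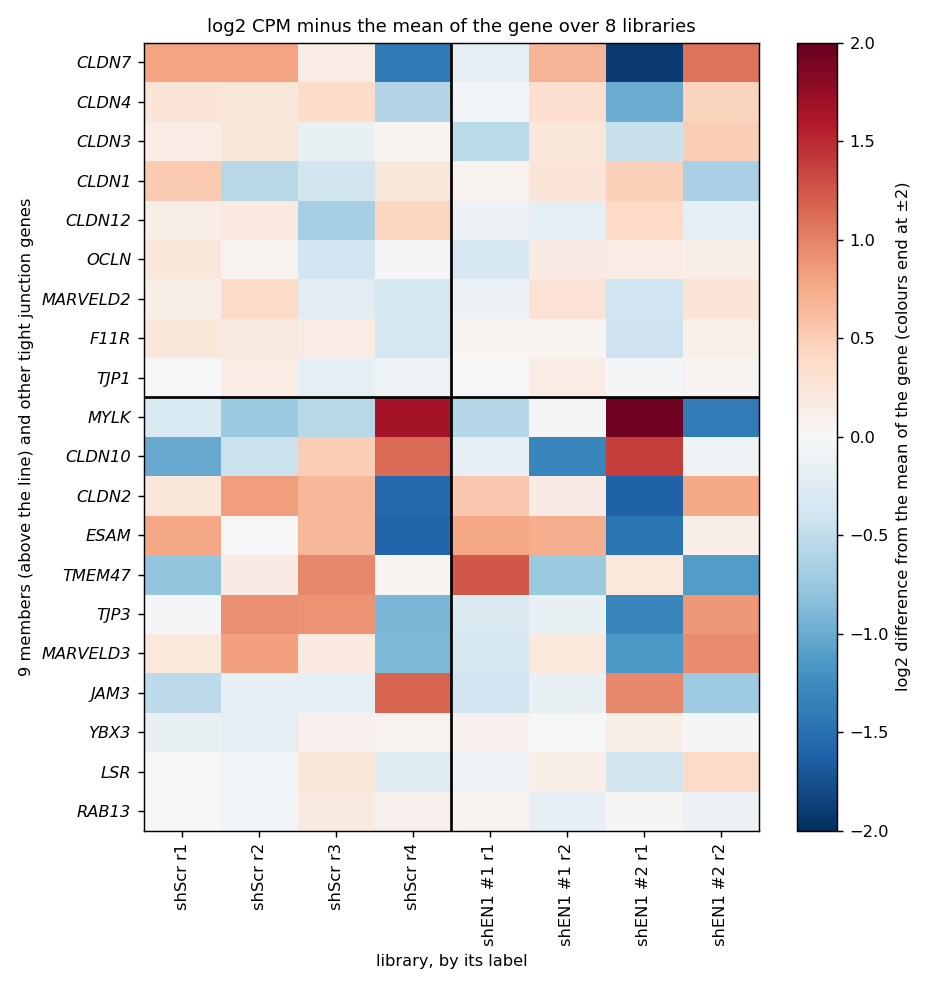
Log2 CPM of each gene minus its mean over the 8 libraries (red above the mean, blue below it, colours ending at 2 on either side), for the 9 members above the line and for the other named tight junction genes below it, with the libraries in columns and a vertical line between the labels. The columns of shScr replicate 4 and shEN1 #2 replicate 1 are blue for *CLDN7*, *CLDN4*, *CLDN2*, *ESAM*, *TJP3* and *MARVELD3* and red for *MYLK*, *JAM3* and *CLDN10*. The genes below the line include the 8 named for the widest range, and these libraries stood apart over all genes too.

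Of 15 transcription factors known as regulators of epithelial genes, 13 passed the filter and 0 of 13 the test at the adjusted or unadjusted p, with 6 fold changes above and 7 below 0. *ZEB2* and *TWIST1* were below the filter. The epithelial factor *ELF3* stood at 65.8 CPM in shScr replicate 4 and 48.6 CPM in shEN1 #2 replicate 1, against 87.2 to 160.0 CPM in the other 6. *HNF4A* (14.4 and 14.9 CPM, against 36.1 to 52.7 CPM) and *KLF4* (12.3 and 12.4 CPM, against 22.96 to 38.6 CPM) were low in the same libraries. The E-box repressors went different ways there: *SNAI2* was low (1.44 and 1.63 CPM, against 6.80 to 12.2 CPM) and *ZEB1* high (20.2 and 23.6 CPM), although *ZEB1* was as high in shEN1 #1 replicate 1 (22.3 CPM), with 9.40 to 10.96 CPM elsewhere. *GRHL1* was highest there (11.4 and 12.9 CPM, against 5.65 to 7.80 CPM), while *GRHL2* stayed within 71.8 to 97.4 CPM and *KLF5* within 204.3 to 303.1 CPM. *GRHL3* and *SNAI1* stayed under 2.5 CPM, *OVOL1* lay within 4.57 to 11.6 CPM, *OVOL2* within 3.63 to 6.79 CPM and *CDX2* within 11.4 to 21.9 CPM.

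For each member the 2 genes with the nearest course over the 8 libraries were taken from 13804 tested genes with a symbol, by the root mean square difference of log2 CPM centred on its mean. *CLDN7* lay nearest to *CAPN8* (0.123) and *VSTM2L* (0.200), *CLDN4* to *KLF13* (0.0566) and *TTC7A* (0.0827), and *CLDN3* to *SGPP2* (0.0828) and *PCSK5* (0.105). *CLDN1* lay nearest to *NPFF* (0.155) and *PDGFB* (0.160), and *CLDN12* to *HYCC2* (0.0818) and *C6orf52* (0.0834). *OCLN* lay nearest to *SNORD96A* (0.0468) and *UTP18* (0.0677), *TJP1* to *ZNF800* (0.0362) and *XPO7* (0.0419), and *F11R* to *FLAD1* (0.0422) and *CMBL* (0.0438). Of these, *NPFF* (0.135 to 1.085 CPM), *C6orf52* (0.0574 to 0.641 CPM) and *SNORD96A* (1.04 to 1.84 CPM) were near the floor. There the 0.5 CPM added before the log2 flattens a course and counting error is large, so their nearness says little. *MARVELD2* lay nearest to *PATJ* (0.0635), which encodes a polarity scaffold of the tight junction, and *EXPH5* (0.0791). *PATJ* stood at 47.7, 53.7, 40.3 and 36.4 CPM in shScr replicates 1 to 4, at 38.9 and 55.5 CPM in shEN1 #1 and at 32.4 and 51.6 CPM in shEN1 #2, and its lowest libraries were shEN1 #2 replicate 1 and shScr replicate 4, as for *MARVELD2*. A small distance is easiest to reach for a steady member, so the values are to be compared within a member, and no member was the nearest gene of another.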

How the data were processed

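RNA-seq of SUIT2 cells was analysed in 8 libraries grouped by their labels (4 shScr, 2 shEN1 #1, 2 shEN1 #2). The values deposited by the authors are raw counts, whole numbers of reads for each gene. Per the paper's methods, mRNA was captured on polyT beads, and paired-end reads were aligned with HISAT2 to hg19 and counted with featureCounts. The labels name mm9, although the gene numbers are human. Annotation and strand setting are not given in the sources used here, so genes with shared exons or close copies could exchange reads. The 2006 of 25702 gene numbers without a symbol held 0.214% to 0.257% of the counts.

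Counts were filtered with filterByExpr (minimum count 10), scaled by TMM and tested with edgeR 4.0.16 (glmQLFit, robust, and glmQLFTest, without a block) in R 4.3.3, with Benjamini-Hochberg adjustment over all 14333 genes and a threshold of 0.05. The 3 groups were fitted for the constructs. DESeq2 1.42.0, limma-voom (limma 3.58.1), other scalings and filters, the replicate number as a block and left-out libraries were alternatives. The edgeR and DESeq2 tests were run on simulated counts with known changes. This checked signs and false calls and set no minimum on the changes recovered. Highest-to-lowest ratios add 0.5 CPM. Gene positions and lengths came from GENCODE v44 lifted to GRCh37, and promoters from RefSeq on GRCh38.p14. At library totals of 33423590 to 37810604 counts, the members had 510 to 8630 reads per library, and their counting error was small beside their spread between libraries. For named genes with few reads, such as *SNAI1* (8 to 44 reads), counting error was larger and no interval was computed. Intervals cover counting error only.

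Named were the 9 members, *EN1*, and, of the lists of other claudins, tight junction proteins and polarity regulators, the 8 genes with the widest range, the 5 with the highest level per length and any with an unadjusted p below 0.05 (none). Every tested transcription regulator and the 2 nearest genes of each member were named too. Of the genes this rule names, 1 is not reported here. *EPCAM*, *CDH1* and the keratins were added after their values were seen. The members and lists were chosen with earlier results of these data known.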

Additional observations from a re-analysis of the deposited data

Results flagged for a closer look

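A library was singled out where its distance to the nearest of the other 3 libraries of its label was large beside the whole range of that label (Dixon's test at the 95% level). Of 68 label groups tested, over 34 named genes, 10 were singled out, where chance gives about 1 in 20, or 3.4. That share does not hold strictly here, since 8 of the genes were named for their wide range and values in 1 library are not independent. Of the 18 groups of tight junction members, 4 were singled out. The share over all genes tested was not computed, so this count is not read as a trait of the members.

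*CLDN12* was high in the library labelled shEN1 #2 replicate 1, at 58.45 CPM against 38.38 to 40.81 CPM in the other 3 of its label. *OCLN* was low in shEN1 #1 replicate 1, at 23.67 CPM against 32.85 to 33.75 CPM. *F11R* was low in shScr replicate 4, at 163.2 CPM against 228.1 to 240.2 CPM, and low in shEN1 #2 replicate 1, at 154.4 CPM against 211.1 to 220.5 CPM.

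Among the other genes, *GRHL1* was high in shEN1 #2 replicate 1 at 12.9 CPM (others 6.891 to 7.804 CPM), *JAM3* was high in shScr replicate 4 at 28.65 CPM (8.587 to 11.22 CPM), and *MYLK* was high in shScr replicate 4 at 27.74 CPM (4.80 to 6.719 CPM) and in shEN1 #2 replicate 1 at 33.78 CPM (2.857 to 8.121 CPM). *SNAI2* was low in shScr replicate 4 at 1.442 CPM (6.801 to 7.623 CPM), and *ZEB1* was high there at 20.24 CPM (10.06 to 10.96 CPM). Of the 10, 9 were in shScr replicate 4 or shEN1 #2 replicate 1, the libraries set apart by the first principal component over all genes.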

How the results depend on the processing

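The number of members called was 0 in every alternative run: other scalings and filters, DESeq2, limma-voom, 3 groups, the replicate block, and left-out libraries. The number of all genes called was 2 with DESeq2, 1 with the replicate block, 1 without both shScr replicate 4 and shEN1 #2 replicate 1, 1 without 4 libraries (those and shScr replicate 3 and shEN1 #1 replicate 1), 1 without shScr replicates 3 and 4, 44 at the unadjusted p, and 0 to 1 with 1 library left out (1 without shScr replicate 4). Without the 4 libraries, *CLDN12* reached an unadjusted p of 0.00973 (log2 fold change -0.36, adjusted p = 0.401, edgeR), where 1512 of 14273 genes were below 0.05. Leaving out shScr replicates 3 and 4, whose dataset numbers in the headers follow those of all other libraries, was chosen after seeing the data.

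With 1 library left out, the log2 fold changes lay from -0.083 to 0.28 for *CLDN1*, -0.30 to 0.065 for *CLDN3*, -0.26 to 0.14 for *CLDN4*, -0.43 to 0.31 for *CLDN7*, -0.26 to 0.064 for *CLDN12*, -0.051 to 0.16 for *OCLN*, 0.030 to 0.15 for *TJP1*, -0.23 to -0.012 for *F11R* and -0.088 to 0.17 for *MARVELD2*. The sign turned in 30 of 171 alternatives of the members' fold changes. It did so without shScr replicate 4 and shEN1 #2 replicate 1 for *CLDN1* (-0.0101), *CLDN3* (0.0275) and *CLDN7* (0.0163), without the 4 libraries for *CLDN1* (-0.21), *CLDN3* (0.17), *CLDN4* (0.15) and *CLDN7* (0.11), and without shScr replicates 3 and 4 for *OCLN* (-0.11), *TJP1* (-0.0284) and *MARVELD2* (-0.23). The cause was not tested. *CLDN7* took its most extreme value, -0.82, with the replicate block, which in effect compares only shScr replicates 1 and 2 with shEN1. Without shScr replicates 3 and 4 it was -0.50.

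The replicate block turned *OCLN* to -0.11, *TJP1* to -0.0266 and *MARVELD2* to -0.25. Only the replicate numbers 1 and 2 occur under both labels, so the other shScr libraries carried no contrast between the labels in this fit. It is therefore not independent of the run that left those libraries out. For these genes it gave nearly the same values. The numbers were not taken as pairs: deviations from the label means of same-numbered libraries correlated at -0.439, 0.0313, 0.212 and 0.398, and the highest correlation, 0.856, joined shScr replicate 4 and shEN1 #2 replicate 1. Of 68 alternatives of the highest-to-lowest ratios, 66 moved by less than 1 SD between libraries. With 4 libraries a label and members of up to 8.01-fold range, small differences between labels were not detectable. For members with a wide spread, larger differences are not excluded either. The SE of the log2 fold change ran from 0.11 for *TJP1* to 0.62 for *CLDN7*, where a log2 fold change of 1 is a 2-fold difference.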
